A study of Sus scrofa with 9 samples.

Results

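The iron and 2-oxoglutarate dependent dioxygenases described here are 36 genes of demethylases and hydroxylases that need ferrous iron. They were taken from a fixed list of gene symbols, and each of the 36 symbols stood on 1 row of the deposited table of 25918 genes. The liver RNA came from 9 Wujin pigs, 3 in each diet group, with 1 library per pig. All pigs received the same basal diet from 35 days of age, prefed for 5 days and then fed for 30 days. The low-iron group had 0 mg/kg of added iron, the control group 100 mg/kg and the high-iron group 200 mg/kg, given as iron glycinate, so that the control group was itself supplemented and the low-iron diet was not stripped of its own iron. No genotype or other treatment was named, and the sex of each pig was not given in the labels. Libraries are named here by group and by the number in the label, whose meaning is not given. Pigs of 1 group are the replicates. P-values of the fit described below rest on the spread between pigs within groups, pooled over the 3 groups. A comparison of 2 groups thus also carries the spread of the other group.

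These enzymes hold a ferrous iron in the active site and split molecular oxygen with the help of 2-oxoglutarate, which leaves as succinate and carbon dioxide while the substrate is hydroxylated. Ascorbate keeps the iron in its ferrous state, and succinate and fumarate compete with 2-oxoglutarate. The Jumonji histone demethylases, FTO and ALKBH5 place the hydroxyl group on a methyl group, and the product falls apart so that the methyl group is lost. The TET enzymes oxidise the methyl group of methylated cytosine, which is a step towards its removal. Other members place hydroxyl groups on collagen, or act on small molecules in carnitine synthesis and in the breakdown of branched fatty acids. Iron acts on these enzymes as a cofactor, while the values below are RNA levels and hold no measure of enzyme activity.

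Values are FPKM, fragments scaled by transcript length and by the mapped fragments of the library, so that levels can be set side by side between genes. A log2 fold change is the difference of group means of log2(FPKM + 0.1), which understates the change of genes with low FPKM. A gene is counted as higher or lower in a group by the sign of this log2 fold change, which for changes near 0 can differ from the order of the mean FPKM. Genes with a mean of at least 0.5 FPKM in the 9 libraries, 12584 genes in all, went into 1 limma fit of the 3 groups. A gene was called when it met the study's thresholds, an unadjusted p-value under 0.05 together with a change of 2-fold or more. Without counts in the table, the depth of a single value is unknown. The FPKM of a library summed to between 416922 and 456420.5.

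The tissue label was checked first. The summed FPKM of 10 hepatocyte markers, among them albumin, lay between 61095 and 89397 over the 9 libraries, far above the other marker lists. TFRC, the transferrin receptor gene, whose RNA is stabilised when iron is short in the cell, had in low-iron replicates 2, 3 and 7 an FPKM of 87.9, 130 and 28.6. The control libraries 4, 5 and 6 had 6.51, 17.0 and 7.51 FPKM, and high-iron replicates 2, 7 and 8 had 40.6, 15.9 and 18.5 FPKM. All low-iron values thus stood above all control values, while low-iron replicate 7 lay inside the high-iron range. HAMP, the hepcidin gene, which falls in iron shortage, varied within each group. Control replicates 4, 5 and 6 had 50.3, 42.0 and 16.2 FPKM of HAMP, and high-iron replicates 2, 7 and 8 had 52.3, 6.87 and 21.8 FPKM. Low-iron replicate 7 had 70.5 FPKM of HAMP, where low-iron replicates 2 and 3 had 3.84 and 2.02 FPKM. The counts of the dioxygenases are therefore also given without low-iron replicate 7.

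Of the 36 dioxygenase genes, 33 passed the filter and were tested. TET1, P4HA3 and P4HTM, with means of 0.24, 0.012 and 0.475 FPKM, were not. Mean levels were below 1 FPKM for 4 genes, from 1 to 10 FPKM for 25, from 10 to 100 FPKM for 6, and above 100 FPKM for PHYH alone. The most abundant dioxygenase transcripts of this liver were those of the metabolic and collagen enzymes: PHYH with 366 FPKM, P4HA1 with 21.3, BBOX1 with 18.9, PLOD3 with 15.3 and PLOD1 with 14.2. JMJD1C with 11.8 and KDM2A with 10.6 FPKM followed as the highest histone demethylase genes. Of the genes named here, P4HA1, BBOX1, PLOD3 and JMJD1C overlap other annotated genes and can share reads with them. For BBOX1 and JMJD1C some of these overlaps are on the same strand. TET2 and TET3, the DNA demethylases, had means of 1.88 and 2.28 FPKM, close to each other and well inside the spread of either gene over the libraries.

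**Figure D1:**
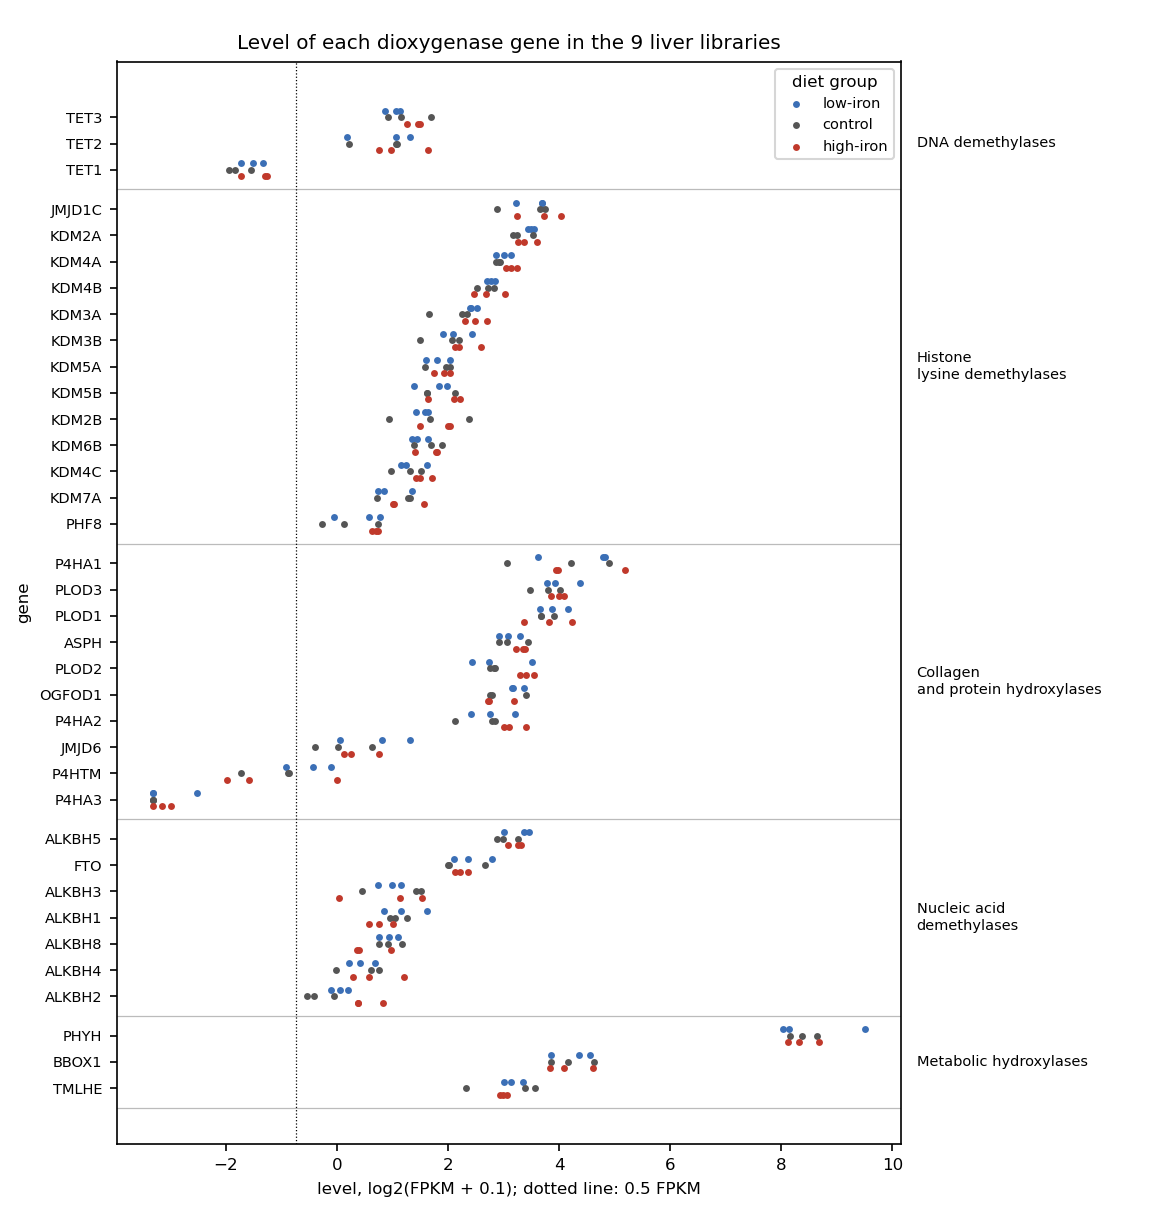
Each point is 1 library, placed by the log2(FPKM + 0.1) of the gene named on the left, with the 3 diet groups in colour and genes sorted by mean level within their role. PHYH stands alone at the right with a mean of 366 FPKM, and TET1, P4HTM and P4HA3 lie around or to the left of the dotted line at 0.5 FPKM, with means of 0.24, 0.475 and 0.012 FPKM.

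Over the 3 comparisons of the diets, no dioxygenase gene was called. For low iron versus control 0 of 33 passed, where 0.882% of all tested genes did. For high iron versus control the count was 0 of 33 (1.57% of all tested genes), and for high versus low iron 0 of 33 (1.54%). At an unadjusted limma p-value under 0.05 alone, without the fold threshold, the counts were 0, 3 and 0 of 33, against 3.68%, 5.59% and 7.15% of all tested genes (2.92% for low iron versus control when genes higher with low iron alone are counted). No dioxygenase gene had a limma adjusted p-value (Benjamini-Hochberg, over all tested genes) under 0.724 in any comparison, and of all tested genes 0.00795%, 1 gene, passed 0.05 for high iron versus control. The 95% interval of the change lay within a fold of 2 in either direction for 29, 25 and 25 of the 33 genes, where 66.7%, 63.9% and 62.2% of all tested genes had such an interval. For these genes a change of 2-fold in either direction lay outside the interval.

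The 3 genes at an unadjusted p-value under 0.05 were ALKBH2, PLOD2 and P4HA2, all for high iron versus control and all higher with high iron. They make up 9.09% of the tested dioxygenases in that comparison, and 4.78% of all tested genes passed p in that direction. In this comparison 26 of 33 dioxygenase genes were higher in the high-iron group on the log2 scale, with a median log2 fold change of 0.18, where 65% of all tested genes were higher, with a median of 0.10. Scaling the libraries by median of ratios or by quantile normalization moved the median of all tested genes to -0.03 and -0.01, and then 19 of 33 dioxygenase genes were higher under either scaling. Against the low-iron group, 18 of 33 were higher with high iron (median 0.10, all tested genes 53.6% and 0.03). For low iron versus control, 23 of 33 were higher with low iron (median 0.10, all tested genes 62.7% and 0.08), and 18 or 20 of 33 under the other 2 scalings. The control libraries serve in 2 of these comparisons, so the counts share data.

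**Figure D2:**
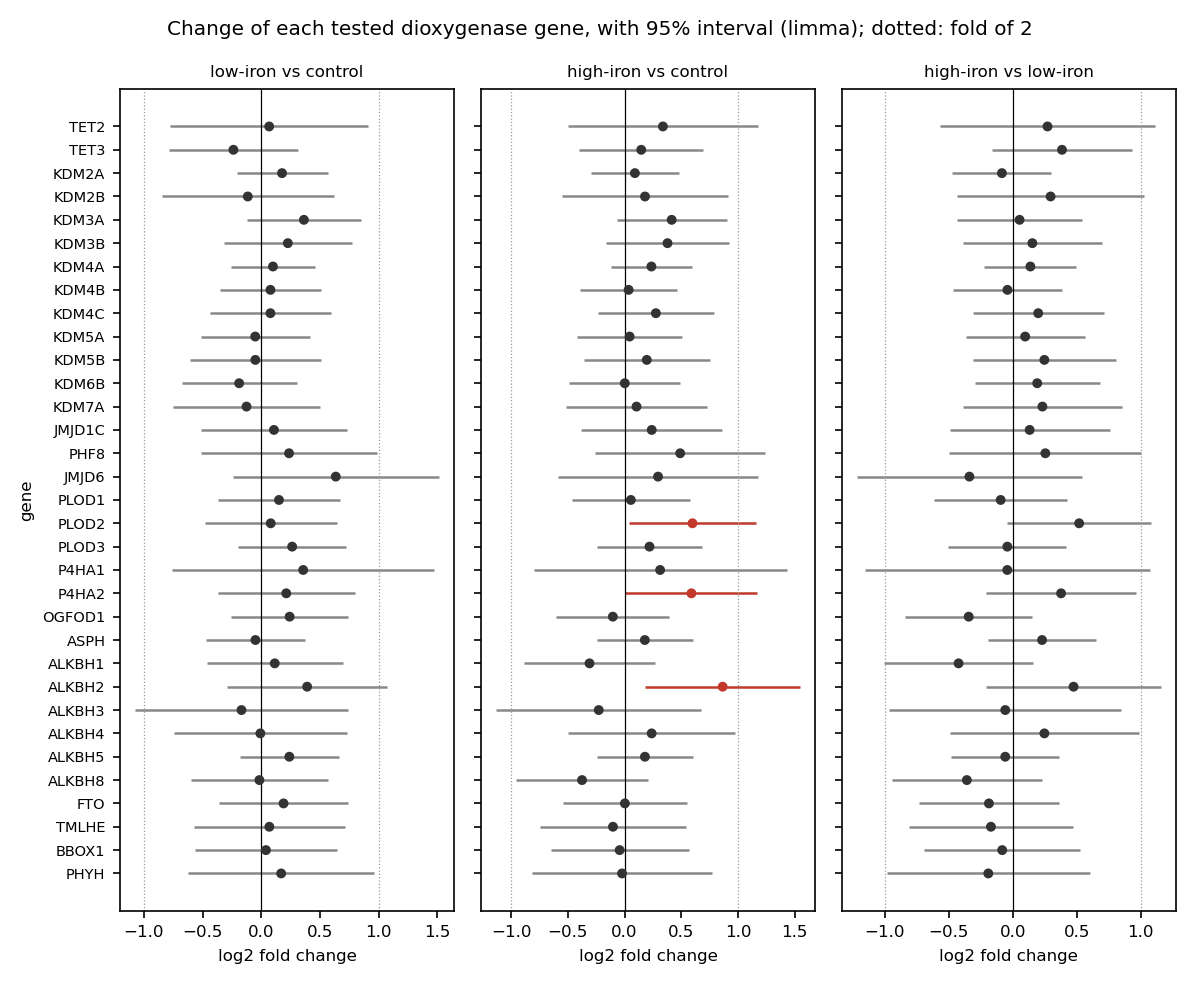
Points give the log2 fold change of each of the 33 tested dioxygenase genes in the 3 comparisons and bars the 95% interval from limma, with dotted lines at a fold of 2 and genes of unadjusted p under 0.05 in red. Red genes appear in the middle panel alone, where ALKBH2 lies at 0.86, PLOD2 at 0.60 and P4HA2 at 0.59, and no point passes a dotted line.

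The TET enzymes oxidise methylated cytosine in DNA, a step towards its removal. TET3, the highest of them, had 2.09, 1.98 and 1.72 FPKM in low-iron libraries 2, 3 and 7, then 3.13, 2.12 and 1.79 FPKM in control replicates 4, 5 and 6, and 2.65, 2.28 and 2.73 FPKM in high-iron replicates 2, 7 and 8. All high-iron values stood above all low-iron values, and the control values spanned nearly the whole range. Its log2 fold change for high versus low iron was 0.38 (standard error, SE, 0.25, limma adjusted p = 0.799), and the exact permutation test gave p = 0.1, two-sided, the smallest that 3 against 3 libraries can give. TET2 went from 1.04 FPKM in low-iron replicate 7 to 3.03 FPKM in high-iron replicate 8, with overlapping groups in each comparison. TET1 stayed between 0.16 and 0.32 FPKM. Of the enzymes that write the mark or act with TET proteins, DNMT1, the maintenance DNA methyltransferase, and TDG, the glycosylase that removes the oxidised bases, were the highest, with means of 3.30 and 3.26 FPKM. Of 6 tested genes of DNA methylation and base excision, 0 were called in any comparison.

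Histone demethylases of the Jumonji family take methyl groups off lysines of the histone tails. KDM2A and KDM2B, KDM3A, KDM3B and JMJD1C, KDM4A to KDM4C, KDM7A and PHF8 act mostly on marks of silent chromatin or of transcribed gene bodies, KDM5A and KDM5B on the mark of active promoters, and KDM6B on the mark set by Polycomb. All 13 passed the filter, and all 13 were higher in the high-iron than in the control group on the log2 scale of the deposited values, by log2 fold changes from 0.00 for KDM6B to 0.49 for PHF8. None passed an unadjusted limma p-value of 0.05. After median-of-ratios scaling 8 of 13 and after quantile normalization 9 of 13 were higher, so the common direction depended on the scaling. Against the low-iron group 11 of 13 were higher, under each of the 3 scalings, with a median of 0.15. For low iron versus control 8 of 13 were higher with low iron, with 7 of 13 after median-of-ratios scaling.

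JMJD1C, the highest of the histone demethylases, had 12.9, 12.7 and 9.20 FPKM in the low-iron libraries 2, 3 and 7. It had 13.3, 12.4 and 7.25 FPKM in control libraries 4, 5 and 6, and 16.2, 9.30 and 13.2 FPKM in high-iron libraries 2, 7 and 8. Each group had 1 library well below its other members, and the groups overlapped throughout. The log2 fold change for high iron versus control was 0.24, with a 95% interval from -0.38 to 0.86.

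KDM3A and KDM4A were picked after their values were seen, because their groups did not overlap. KDM3A, an H3 lysine demethylase gene that hypoxia-inducible factors are known to induce, had 5.13, 5.65 and 5.25 FPKM in low-iron libraries 2, 3 and 7 and 4.63, 4.97 and 3.05 FPKM in control libraries 4, 5 and 6. The low-iron values all stood above the control values, the nearest pair being 5.13 and 4.97. The log2 fold change was 0.36 (SE 0.22, limma adjusted p = 0.9998, exact permutation p = 0.1). High-iron replicates 2, 7 and 8 had 6.42, 4.85 and 5.46 FPKM, overlapping both other groups. KDM4A varied least of all tested dioxygenases, with a ratio of the highest to the lowest library of 1.30. It had 8.12, 9.36 and 8.71 FPKM in the high-iron libraries 2, 7 and 8, all above the control libraries 4, 5 and 6 with 7.46, 7.49 and 7.18 FPKM, a log2 fold change of 0.24 (SE 0.16, limma adjusted p = 0.932, exact permutation p = 0.1). Histone methyltransferases, which place methyl groups on histone lysines, were tested as 14 genes, of which 0 were called in any comparison. Of these 14, 11 were higher in the high-iron than in the control group, or 7 after either other scaling. SETD2 and EHMT1, the highest of them, had means of 10.3 and 6.66 FPKM.

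The ALKBH genes and FTO are grouped here as nucleic acid demethylases, although not every member removes methyl groups from nucleic acids. Most of them repair or edit methylated bases. ALKBH2 repairs alkylated bases in double-stranded DNA and ALKBH3 in single strands, FTO and ALKBH5 remove N6-methyladenosine (m6A) from RNA, and ALKBH1 and ALKBH8 act on transfer RNA. ALKBH2 stands at chr14:41760427-41766990 of the Sscrofa11.1 build. Its RNA had 1.19, 1.19 and 1.68 FPKM in high-iron replicates 2, 7 and 8. In control replicates 4, 5 and 6 it had 0.86, 0.65 and 0.59 FPKM, and in low-iron libraries 2, 3 and 7 it had 0.83, 0.93 and 1.05 FPKM. Every high-iron value stood above all 6 other libraries, while the low-iron and control ranges overlapped. The group means were 1.35 ± 0.28, 0.70 ± 0.15 and 0.94 ± 0.11 FPKM with high iron, in the control group and with low iron (SD, n = 3 each).

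The change of ALKBH2 for high iron versus control was the largest of any dioxygenase in any comparison, a log2 fold change of 0.86 (SE 0.31, limma unadjusted p = 0.0177, adjusted p = 0.885 over all tested genes). Against the low-iron group it was 0.47 (SE 0.31, limma adjusted p = 0.801). An exact permutation test of the F statistic, which runs through 1680 ways to place the libraries in 3 groups, gave p = 0.00714, unadjusted, 1 of 33 such tests and the smallest of them. Without control replicate 4 the log2 fold change was 1.01 and ALKBH2 passed the fold and p thresholds. Without high-iron replicate 8 it was 0.71 (limma unadjusted p = 0.0732), and without control replicate 6 it was 0.76 (limma unadjusted p = 0.0530). The gene overlaps USP30 on the opposite strand, and the library kit did not mark strand, so reads of the 2 genes cannot be told apart where they overlap.

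ALKBH5 was the highest of this group of enzymes. It had 7.92, 10.9 and 10.3 FPKM in low-iron libraries 2, 3 and 7, 7.23, 7.86 and 9.44 FPKM in control libraries 4, 5 and 6, and 8.36, 9.51 and 9.85 FPKM in high-iron libraries 2, 7 and 8. The ranges overlapped in each comparison. FTO, the other m6A demethylase gene, ranged from 3.89 to 6.84 FPKM, and its log2 fold change for high iron versus control was 0.00 with a 95% interval from -0.54 to 0.55. ALKBH1 and ALKBH8 had lower means in the high-iron group than in either other group, with log2 fold changes from -0.31 to -0.42, none at an unadjusted limma p-value under 0.05. Of the 10 tested genes that write or read m6A, among which YTHDF3 and WTAP were the highest with 19.9 and 17.2 FPKM, 0 were called in any comparison. For high versus low iron 9 of these 10 were lower with high iron, with a median of -0.11, where 53.6% of all tested genes were higher, with a median of 0.03. YTHDC2 went the other way, with means of 5.45 FPKM with high iron and 3.60 FPKM with low iron.

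**Figure D3:**
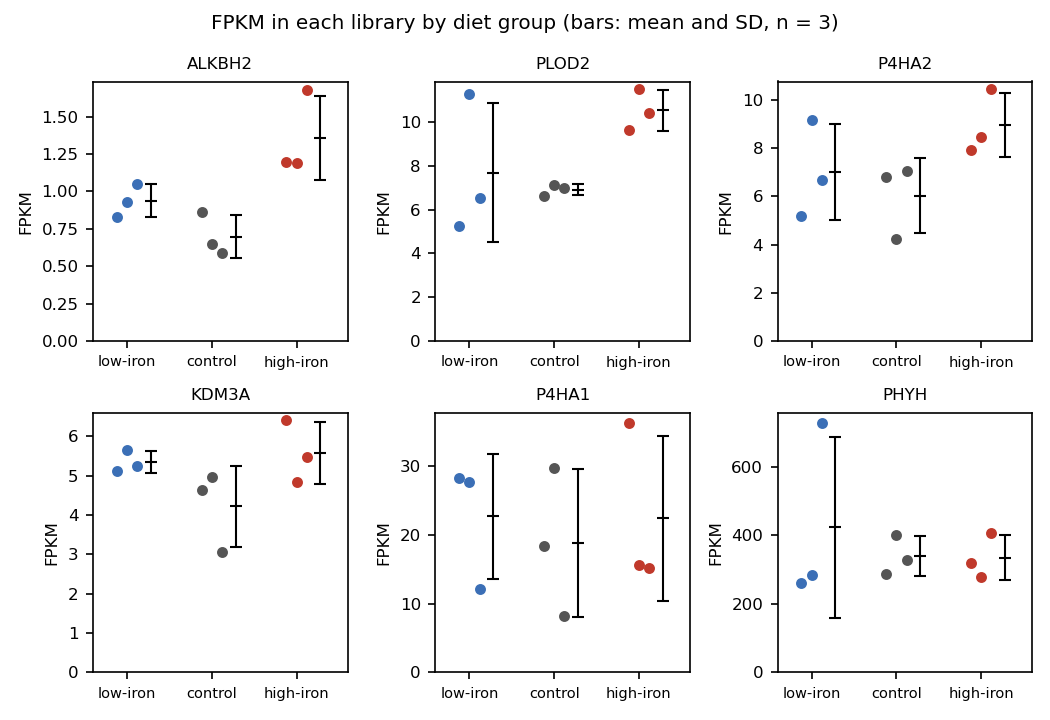
FPKM of 6 dioxygenase genes is plotted for each library by diet group, on axes that start at 0, with the group mean and SD beside the points (n = 3). The 3 high-iron points of ALKBH2, from 1.19 to 1.68 FPKM, stand above all other points of that panel, while those of P4HA1 and PHYH overlap the other groups.

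Collagen is hydroxylated in the endoplasmic reticulum before it folds. P4HA1, P4HA2 and P4HA3 are catalytic subunits of prolyl 4-hydroxylase, which stabilises the triple helix, and PLOD1, PLOD2 and PLOD3 hydroxylate lysines that later carry cross-links and sugars. PLOD2 stands at chr13:86402673-86513167. It had 9.67, 11.5 and 10.4 FPKM in high-iron replicates 2, 7 and 8, and 6.62, 7.12 and 7.0 FPKM in control replicates 4, 5 and 6. In low-iron replicates 2, 3 and 7 it had 5.28, 11.3 and 6.56 FPKM. The high-iron and control groups stood apart with little spread in either, while low-iron replicate 3 alone of its group lay inside the high-iron range. The group means were 10.5 ± 0.93 and 6.91 ± 0.26 FPKM with high iron and in the control group (SD, n = 3 each), a log2 fold change of 0.60 (SE 0.25, limma unadjusted p = 0.0384, adjusted p = 0.892).

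P4HA2 stands at chr2:134502210-134595444, where it overlaps PDLIM4 and SLC22A4 on the opposite strand. It had 7.93, 8.48 and 10.5 FPKM in high-iron libraries 2, 7 and 8, 6.79, 4.24 and 7.05 FPKM in control libraries 4, 5 and 6, and 5.20, 9.15 and 6.67 FPKM in low-iron libraries 2, 3 and 7. The pattern was like that of PLOD2, with high-iron values above all control values and low-iron replicate 3 at the level of the high-iron group. The log2 fold change for high iron versus control was 0.59 (SE 0.26, limma unadjusted p = 0.0477, adjusted p = 0.892). It was 0.36 without control replicate 5 and 0.47 without high-iron replicate 8, at unadjusted limma p-values of 0.192 and 0.149. PLOD2 and P4HA2 had unadjusted limma p-values above 0.05 after median-of-ratios scaling (0.0758 and 0.0732) and quantile normalization (0.0591 for each).

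For high iron versus control, 4 of 33 dioxygenase genes had groups that did not overlap, where 10.9% of all tested genes had this: ALKBH2, PLOD2, P4HA2 and KDM4A, all higher with high iron. For low iron versus control KDM3A alone had it, 1 of 33 against 8.34% of all tested genes, and for high versus low iron 2 of 33, TET3 and ALKBH2, against 13.2%. These shares are near those of all tested genes or below them.

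The bases before the annotated gene start are shown for ALKBH2 and PLOD2, the dioxygenases of the largest change with high iron. They are also shown for KDM3A, whose low-iron and control values did not overlap. ACGTG, 1 form of the core of the element that hypoxia-inducible factors bind, was searched on both strands and set in capitals. The other form, GCGTG, was not searched or set in capitals. It stands in the PLOD2 window and, on the opposite strand, in the ALKBH2 window. The windows are 250 bases of Sscrofa11.1 from the RefSeq annotation, written 5′ to 3′ on the strand of the gene, and lie at chr14:41760177-41760426 (plus strand) for ALKBH2, chr13:86513168-86513417 (minus strand) for PLOD2 and chr3:58355001-58355250 (minus strand) for KDM3A.
ALKBH2: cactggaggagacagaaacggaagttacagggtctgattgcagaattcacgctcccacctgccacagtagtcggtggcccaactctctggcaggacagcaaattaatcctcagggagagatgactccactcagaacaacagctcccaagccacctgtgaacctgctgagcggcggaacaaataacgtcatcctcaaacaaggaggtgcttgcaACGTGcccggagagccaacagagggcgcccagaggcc
PLOD2: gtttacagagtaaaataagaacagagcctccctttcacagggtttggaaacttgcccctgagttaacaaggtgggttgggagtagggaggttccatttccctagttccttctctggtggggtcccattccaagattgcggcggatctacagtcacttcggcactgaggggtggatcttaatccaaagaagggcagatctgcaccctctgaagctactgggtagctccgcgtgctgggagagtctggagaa
KDM3A: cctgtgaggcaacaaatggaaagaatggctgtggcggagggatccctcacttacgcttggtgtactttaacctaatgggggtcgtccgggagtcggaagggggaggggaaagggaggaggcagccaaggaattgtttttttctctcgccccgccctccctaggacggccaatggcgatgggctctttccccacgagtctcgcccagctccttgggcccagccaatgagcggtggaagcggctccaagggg
ALKBH2 held 1 match to ACGTG, starting 37 bases before the gene start, and the windows of PLOD2 and KDM3A held none. Over the dioxygenases 8 of 36 windows held a match (22.2%), and over all numbered genes 3768 of 20650 (18.2%). In the palindrome CACGTG the motif stands on both strands and overlaps itself, as in KDM4B, KDM4C and JMJD1C. These letters describe the window and say nothing of binding.

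P4HA1, the highest collagen hydroxylase, showed the widest range of the tested dioxygenases, with a ratio of the highest to the lowest library of 4.42. It had 28.2, 27.7 and 12.2 FPKM in low-iron libraries 2, 3 and 7, then 18.4, 29.7 and 8.21 FPKM in control libraries 4, 5 and 6, and 36.3, 15.7 and 15.2 FPKM in high-iron libraries 2, 7 and 8. High and low libraries occurred in each group, and the 95% intervals of its log2 fold changes reached from -1.16 to 1.47. PLOD1 and PLOD3 had log2 fold changes of 0.06 and 0.22 for high iron versus control, with overlapping values. P4HA3 is listed at 0 in 6 libraries and reached at most 0.073 FPKM. Of the remaining hydroxylases of proteins, ASPH, which hydroxylates aspartate and asparagine in EGF-like domains, ranged from 7.42 to 10.8 FPKM, OGFOD1, which acts on a ribosomal protein, from 6.44 to 10.5 FPKM, and JMJD6, a lysyl hydroxylase of splicing regulators, from 0.66 to 2.37 FPKM. P4HTM, a transmembrane prolyl hydroxylase, lay between 0.15 and 0.90 FPKM and can share reads with WDR6, which it overlaps on the same strand.

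Substrates and partners of the collagen hydroxylases were looked at for the same comparison. All 8 tested collagen genes (fibrillar, basement membrane and COL6A2) were higher on the log2 scale in the high-iron than in the control group. So were all 7 tested partners of collagen hydroxylation. The median log2 fold changes were 0.73 and 0.38, and 1 gene of each list was called. The counts were 8 of 8 and 6 of 7 after median-of-ratios scaling. COL1A1, the main fibrillar collagen chain gene, had 51.3, 30.6 and 108 FPKM in high-iron libraries 2, 7 and 8 and from 15.4 to 22.3 FPKM in the control libraries, a log2 fold change of 1.53 (SE 0.49, limma adjusted p = 0.885). FKBP10, a collagen prolyl isomerase of the endoplasmic reticulum, had 1.53, 1.08 and 2.42 FPKM with high iron and from 0.40 to 1.16 FPKM in the control libraries (log2 fold change 1.09, SE 0.44, limma adjusted p = 0.892). The called genes of these lists against the low-iron group were COL1A1 (1.51), COL1A2 (1.05) and FKBP10 (1.12). Low-iron replicate 3 had 39.7 FPKM of COL1A1 and 24.6 FPKM of COL1A2, above high-iron replicate 7 with 30.6 and 20.0 FPKM, so these groups overlapped. FKBP10 reached at most 0.91 FPKM with low iron, below all high-iron values. In that comparison 0 of all tested genes had a limma adjusted p-value under 0.05. P4HB, the shared beta subunit of prolyl 4-hydroxylase, and PPIB, the highest of the partners with 402 and 136 FPKM, were not called, and P4HB had a log2 fold change of 0.20.

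Marker genes of some other liver cell types differed in the same direction. All 10 markers of stellate cells and fibroblasts had a log2 fold change above 0 for high iron versus control, although the mean FPKM of TAGLN was 34.0 with high iron and 34.9 in the control group. Their summed FPKM ranged from 258 to 373 with high iron, from 141 to 279 in the control group and from 153 to 395 in the low-iron group. COL1A1, COL1A2 and COL3A1 stand in this marker list and in the collagen list. The 8 macrophage markers summed to between 632 and 770 FPKM with high iron and between 398 and 531 FPKM in the control group, the 7 endothelial markers to 235 to 275 and 192 to 226 FPKM, and the 7 T and NK cell markers to 25.8 to 43.9 and 15.4 to 25.7 FPKM. Of the macrophage markers 7 of 8 were higher after median-of-ratios scaling. The endothelial marker CLEC4G had a mean of 110.2 FPKM with high iron and 112.7 in the control group. Sums of other lists overlapped between these groups. With high iron and in the control group they were 15.95 to 30.65 and 11.32 to 24.28 FPKM for B and plasma cell markers. They were 5.22 to 7.51 and 2.39 to 8.64 FPKM for bile duct markers, and 350.6 to 838.4 and 211.2 to 1445 FPKM for erythroid markers. No marker of these lists was at 0 in all libraries. The part of these cells in the levels of PLOD2, P4HA2 and ALKBH2 was not tested, and in bulk RNA more cells of a type and more RNA per cell cannot be told apart.

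**Figure D4:**
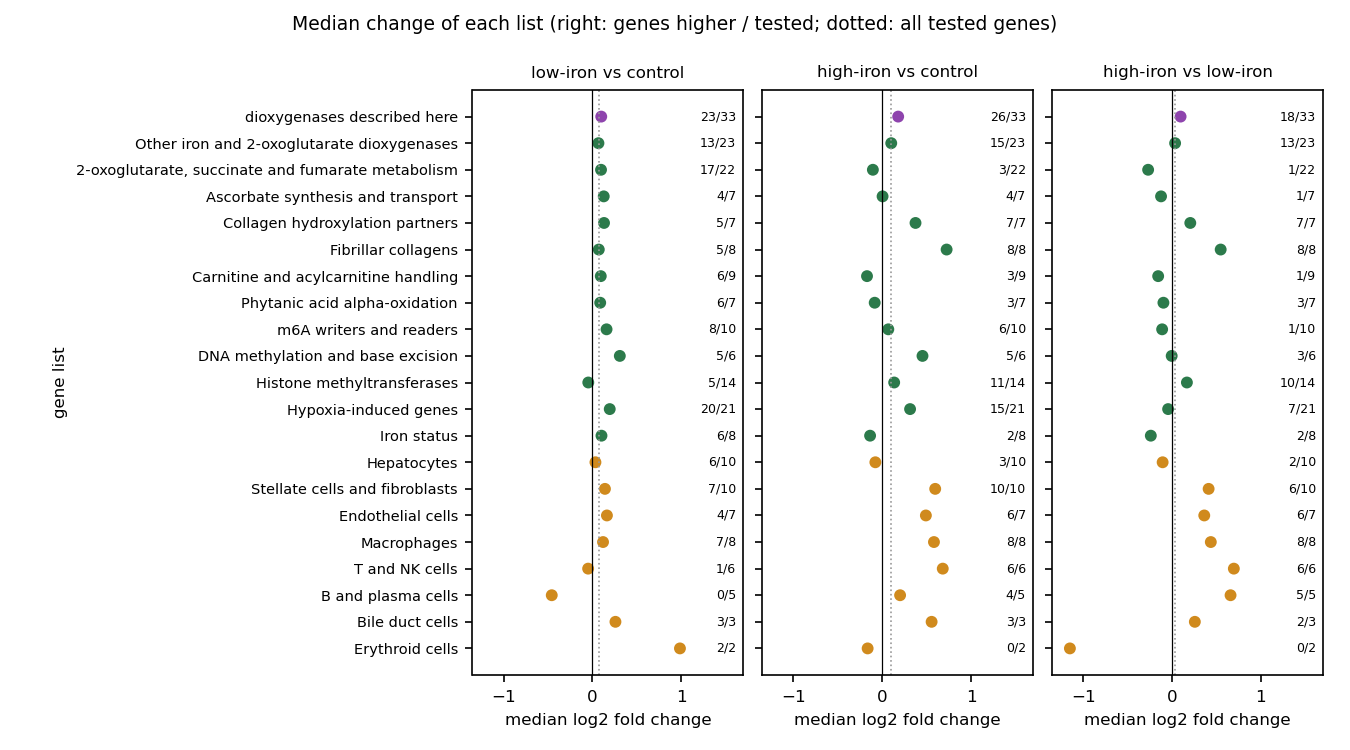
Points give the median log2 fold change of each gene list in the 3 comparisons, with the number of genes higher and tested at the right and a dotted line at the median of all tested genes. The dioxygenases lie next to that line in each panel (0.10, 0.18 and 0.10). The stellate, macrophage and T cell markers lie to the right of the line with high iron. So does the list labelled fibrillar collagens, which also holds COL4A1, COL4A2 and COL6A2. The genes of 2-oxoglutarate metabolism lie to the left of the line, at -0.27 against the low-iron group.

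The metabolic hydroxylases act in liver on small molecules. PHYH starts the alpha-oxidation of phytanic acid in the peroxisome, while TMLHE and BBOX1 catalyse the opening and the closing step of carnitine synthesis. PHYH had 261, 283 and 729 FPKM in low-iron libraries 2, 3 and 7, then 286, 401 and 329 FPKM in control replicates 4, 5 and 6, and 320, 278 and 407 FPKM in high-iron replicates 2, 7 and 8. Low-iron replicate 7 stood far above the other 8 libraries. The other low-iron libraries, with 261 and 283 FPKM, lay below all control libraries. The log2 fold change of the low-iron against the control group, 0.17 with a 95% interval from -0.62 to 0.96, thus rests on low-iron replicate 7 for its sign. BBOX1 ranged from 14.1 to 24.5 FPKM and TMLHE from 4.89 to 11.8 FPKM, with overlapping groups. All 3 had log2 fold changes between -0.02 and -0.10 in the high-iron against the control group. Of 9 tested genes of carnitine handling (SHMT1 and ALDH9A1 highest, with 250.1 and 231 FPKM) and 7 of alpha-oxidation (SCP2 and ALDH3A2 highest, with 258 and 126 FPKM), 0 were called in any comparison.

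Genes of 2-oxoglutarate, succinate and fumarate metabolism, which handle the cosubstrate of these enzymes, its product and a competitor, were looked at as a list of 22, all tested. For high versus low iron 21 of 22 were lower with high iron on the log2 scale, with a median log2 fold change of -0.27, against 0.03 over all tested genes. None was called, and 3 of 22 had an unadjusted limma p-value under 0.05, where 7.15% of all tested genes did: IDH3A (-0.58), OGDH (-0.41) and FH (-0.59), named here after their values were seen, which encode a subunit of isocitrate dehydrogenase, the 2-oxoglutarate dehydrogenase and the fumarate hydratase of the citric acid cycle. GLUD1 and GOT1, the highest of the list with 301 and 189 FPKM, were not among them. The count of lower genes was 21, 21 and 20 of 22 after rescaling to TPM, median-of-ratios scaling and quantile normalization. Against the control group 19 of 22 were lower with high iron, with a median of -0.11. In the same comparison with the low-iron group, 8 of 10 hepatocyte markers had a log2 fold change below 0 with high iron (5 of 10 after quantile normalization) and all 8 macrophage markers a log2 fold change above 0, and their part in this was not tested. Of 7 tested genes of ascorbate synthesis and transport, 0 were called in any comparison, and RGN and UGP2 were the highest with 403 and 288 FPKM.

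Other enzymes of the same chemistry were set beside the 36 as a list of 27, of which 23 were tested. PHYHD1 and ALKBH7, with 25.3 and 13.99 FPKM, were the highest. EGLN3, a prolyl hydroxylase of the hypoxia-inducible factors whose own gene these factors induce, was the only one called in any comparison. It had 4.03, 4.59 and 5.04 FPKM in low-iron libraries 2, 3 and 7 and 0.98, 3.65 and 2.02 FPKM in control libraries 4, 5 and 6, with no overlap. The log2 fold change was 1.18 (SE 0.46, limma unadjusted p = 0.0266, adjusted p = 0.9998). High-iron replicates 2, 7 and 8 had 1.95, 5.81 and 3.58 FPKM, overlapping both other groups. EGLN1, the main oxygen-sensing member of that family, ranged from 7.50 to 9.65 FPKM with a log2 fold change of 0.07 for low iron versus control.

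Genes that hypoxia induces, a list of 22 with 21 tested that also holds EGLN3 and 4 of the dioxygenases described here (KDM3A, P4HA1, P4HA2 and PLOD2), had a log2 fold change above 0 for low iron versus control in 20 of 21, with a median of 0.20, where 62.7% of all tested genes were higher. The count was 15 of 21 after median-of-ratios scaling, with a median of 0.00 over all tested genes. PFKFB3, a glycolytic regulator, was called in 2 comparisons. It had 1.34, 1.79 and 1.14 FPKM in low-iron libraries 2, 3 and 7, 0.53, 0.56 and 0.38 FPKM in control libraries 4, 5 and 6, and 1.04, 1.91 and 1.14 FPKM in high-iron libraries 2, 7 and 8. Low-iron and high-iron values thus all stood above the control values, with log2 fold changes of 1.36 and 1.28 (SE 0.34 each, limma adjusted p = 0.9998 and 0.885). ENO1 and ALDOA, glycolytic enzymes with the highest levels of the list, 173 and 78.8 FPKM, were not called. Among the 8 genes of iron status, TFRC was called in all 3 comparisons, and the ferritin chains FTL and FTH1, the highest with 2967 and 2141 FPKM, in none.

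Low-iron libraries differed among themselves, so the counts of the dioxygenases were repeated without low-iron replicate 7. The number of called genes was again 0 in each comparison, and the number at an unadjusted limma p-value under 0.05 was 0, 2 and 0, P4HA2 being the gene that no longer passed for high iron versus control.

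Highest and lowest values of the dioxygenases fell in libraries of each diet. Of the 33 tested genes, 9 had their lowest value in control replicate 6 and 8 in control replicate 5, while 7 had their highest value in high-iron replicate 8 and 6 in high-iron replicate 2. In high-iron replicate 2, 5 of them were at their lowest too. Some libraries also differed by transcript length. Each library was set against the mean of its own diet group, gene by gene on the log2 scale. These deviations thus compare libraries within a diet and not between diets. The 1042 tested genes with a longest transcript over 8000 bases include TET2, TET3, KDM4B, KDM5A, KDM7A and JMJD1C. Their median deviation from the group mean was -0.26 in control replicate 6, 0.22 in control replicate 4 and 0.13 in high-iron replicate 8. It was 0.03 in control replicate 5 and -0.04 in high-iron replicate 2. The 1793 genes of up to 1500 bases deviated by 0.19 in control replicate 6, by -0.22 in control replicate 5 and high-iron replicate 2, and by 0.02 in high-iron replicate 8. The part of transcript length in the differences between diets was not tested.

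**Figure D5:**
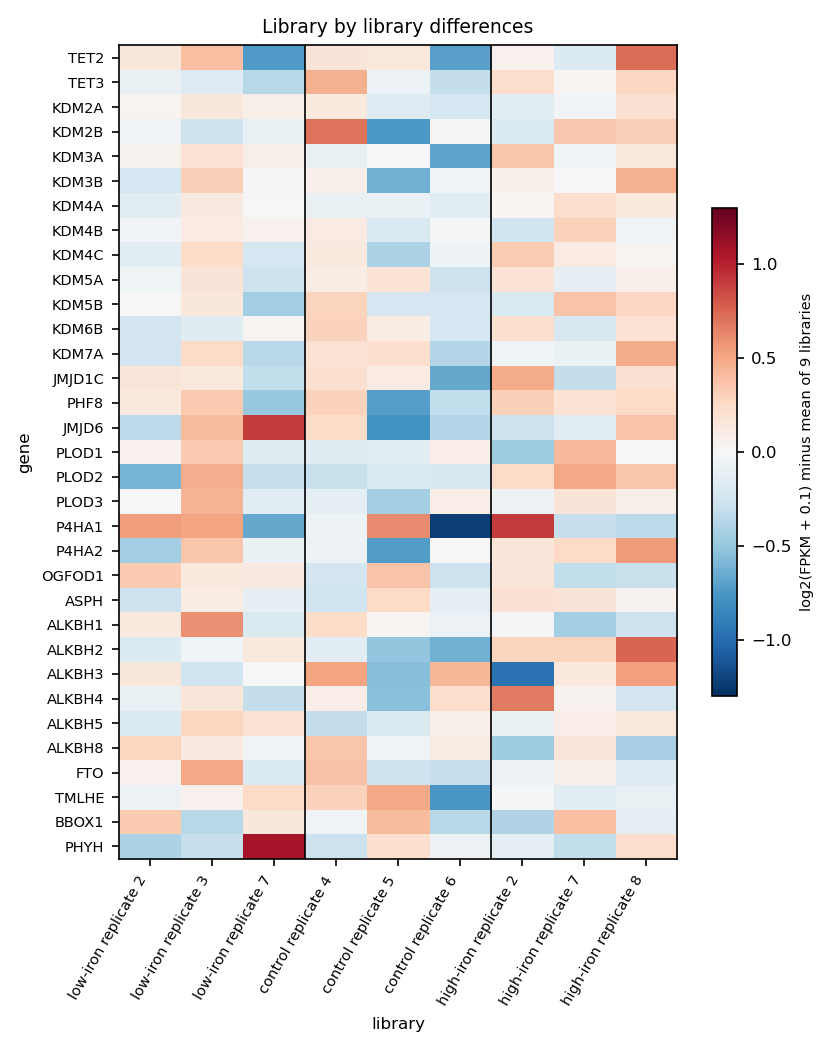
Colours give the log2(FPKM + 0.1) of each tested dioxygenase gene in each library minus its mean over the 9 libraries, with black lines between the diet groups. No group forms a block of 1 colour over the 33 genes, and P4HA1 in control replicate 6 (8.21 FPKM) and PHYH in low-iron replicate 7 (729 FPKM) give the deepest colours.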

How the data were processed

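Liver RNA of 9 Wujin pigs in 3 diet groups of 3 was measured by poly(A) RNA sequencing. The authors trimmed and filtered the reads, aligned them to Sscrofa11.1 with HISAT2, assembled with StringTie and deposited FPKM per gene and library, without stated scaling between libraries or counts. FPKM sums let a few abundant genes shift the rest, and the kit did not mark strand. Genes carry serial numbers, matched to the gene order of NCBI annotation release 106: all 20660 numbered genes fell on protein-coding genes, against 15031 when shifted by 1, and 5258 new genes have no name.

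From the deposited FPKM, log2(FPKM + 0.1) was computed, genes with a mean of at least 0.5 FPKM were kept, and 3 groups were fitted together with limma 3.58.1 (R 4.3.3, empirical Bayes with trend, 6 residual degrees of freedom) with Benjamini-Hochberg adjustment over all 12584 tested genes. The study's count test needs counts and was not used. The fit was tested on simulated data. Single genes were compared with exact permutation tests (Python 3.11.15, numpy 2.4.6, pandas 2.3.3).

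The dioxygenases, the other gene lists and the tests were chosen with earlier results of these data known. Values per library are given for dioxygenases at an unadjusted p under 0.05 or a fold of 2 in any comparison and for the highest of each role. Genes of other lists are named where called or where among the 2 highest of their list, and others were picked after their values were seen. KDM4D, COL6A1, VIRMA, KRT7 and HBA1 of these lists were not analysed here. Alternatives were pseudocounts of 1 and 0.01, no filter and a filter of 1 FPKM, rescaling (TPM, quantiles, median of ratios), a separate fit of each pair of groups, weights per library, a block for the number in the label, and each library left out in turn.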

Additional observations from a re-analysis of the deposited data

How the results depend on the processing

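No dioxygenase was called for low iron versus control or for high versus low iron in any of the 20 alternatives, and for high iron versus control the count was 0 except 1, ALKBH2, without control replicate 4 (range 0 to 1 over the left-out libraries). At an unadjusted limma p-value under 0.05 the count for high iron versus control, 3, was 1 after median-of-ratios scaling, 1 with EIF1AY above 0 as a covariate, an alternative chosen after seeing the data, and from 0 (without high-iron replicate 8) to 3 over the left-out libraries. For high versus low iron the count of 0 became 1 after quantile normalization, 3 with array quality weights and from 0 to 1 over the left-out libraries, and for low iron versus control 0 to 1. The log2 fold change for high iron versus control kept its sign in every alternative run, from 0.47 to 1.01 for ALKBH2, from 0.47 to 0.66 for PLOD2 and from 0.36 to 0.72 for P4HA2. It fell short of an unadjusted p-value of 0.05 in 2 of 19, 8 of 20 and 9 of 20 alternatives. ALKBH2 was below a filter of 1 FPKM and was not tested there.

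Called genes of the companion lists were 3, 4 and 4 in the 3 comparisons. With a pseudocount of 1 they were 1 for low iron versus control and 1 for high iron versus control. In the latter they were 2 after median-of-ratios scaling, 2 after quantile normalization, 2 with EIF1AY as a covariate and 7 with array quality weights. Over the left-out libraries they ranged from 2 to 5, from 3 to 7 and from 1 to 5. The cause of these shifts was not tested.

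Low-iron and high-iron pigs share the numbers 2 and 7 in their labels. The deviations of same-numbered pigs from their group means correlated by 0.018 and 0.021 over genes. The block fit estimated a consensus correlation of 0.201. With only 2 shared numbers and nothing in the labels that ties same-numbered pigs together, the numbers were not taken as pairs. With the replicate number as a block, the dioxygenases at an unadjusted p-value under 0.05 for high versus low iron were 1 in place of 0, and called companion genes for high iron versus control 7 in place of 4.

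Over all tested genes, the split of called genes into higher and lower was 75 and 36, 160 and 37, and 127 and 67 in the 3 comparisons. It was 53 and 47, 96 and 57, and 105 and 80 after median-of-ratios scaling, and 51 and 46, 83 and 68, and 85 and 99 after quantile normalization. With no counts, depth sets no limit that can be computed for single values.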

Other observations

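KDM6A, an X-linked histone demethylase that removes the mark set by Polycomb and uses iron and 2-oxoglutarate like the genes above, was picked after its values were seen. It had from 5.11 to 7.30 FPKM in 4 libraries and from 2.52 to 3.18 FPKM in the other 5, with no values between. The 4 libraries were low-iron replicate 3, control replicate 5 and high-iron replicates 2 and 8, which are also those where EIF1AY, a gene on chromosome Y, is listed at 0. In the other 5 libraries EIF1AY had from 15.0 to 26.5 FPKM. KDM5C, also X-linked, had overlapping ranges, from 7.43 to 12.5 and from 6.87 to 10.6 FPKM, and so did each of the 33 tested dioxygenases of the list. Libraries with EIF1AY at 0 numbered 1 with low iron, 1 in the control group and 2 with high iron.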
